A study of Mus musculus with 4 samples.

Results

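The 8 genes described here, Sox2, Sox4, Sox5, Sox6, Sox8, Sox9, Sox11 and Sox13, are the members of the Sox transcription factor family other than Sox10 that glia and their progenitors are known to use. They were taken by name from the 55401 genes of each table, and all 8 were found. They were measured by RNA sequencing of mouse optic nerves in 4 libraries, 2 of genotype Dor WT and 2 of genotype Dor cKO, where cKO stands for conditional knockout and Dor is a synonym of Trp53inp2. The sources used here do not give the Cre driver, the strain, the age, the sex or the number of animals per library, and nothing states that the libraries of a group came from separate animals, so p-values measure the spread between these libraries. The names of the Dor WT tables hold an age-like tag and the names of the Dor cKO tables do not, and a difference in age between the groups cannot be told apart from genotype.

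Sox proteins bind DNA through an HMG box, a domain that bends the double helix, and act with partner factors on neighbouring sites. They fall into groups of close relatives. Sox2 belongs to group B1 and keeps neural progenitors undifferentiated. Sox4 and Sox11 form most of group C and act in progenitors and young neurons. Sox5, Sox6 and Sox13 form group D and have no activation domain of their own. Sox8 and Sox9 form group E with Sox10. In the mouse central nervous system Sox9 starts gliogenesis and stays on in astrocytes, Sox8 and Sox10 remain on in oligodendrocytes, and Sox5 and Sox6 hold back the differentiation of oligodendrocyte precursors.

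Expected counts totalled 17263830 and 21595832 in the Dor WT libraries against 21162594 and 20928332 in the Dor cKO libraries, so 3 counts, taken as the floor, equal between 0.139 and 0.174 CPM, the unit of counts scaled to library size. The myelin gene Mbp and the astrocyte filament gene Gfap were among the abundant genes, at 9414 CPM or more in each library. They mark myelin and astrocytes and not the optic nerve in particular. Avp, listed here as a hypothalamus marker, had 334 and 358 CPM in the Dor WT libraries against 341 and 357 CPM in the Dor cKO libraries. Trp53inp2 had 138 and 134 CPM in the Dor WT libraries against 105 and 107 CPM in the Dor cKO libraries. Pituitary markers stood apart between the groups. Their summed level was 128 and 127 CPM in the Dor WT libraries against 21.1 and 21.5 CPM in the Dor cKO libraries. Chga made up most of that sum, with a mean of 88.9 CPM in Dor WT and 17.4 CPM in Dor cKO. Cga, a pituitary hormone subunit gene, had 275 and 376 counts in the Dor WT libraries against 0 and 0 in the Dor cKO libraries.

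The coding DNA of the HMG box shows how the members are related and whether reads could be confused between them. The 60 coding bases most alike over the 8 genes are printed below from GENCODE M21 on GRCm38, 5′ to 3′, with the 31 bases that all 8 share in capitals. Each stretch lies within 1 coding exon.
Sox2 (chr3:34650539-34650598, plus strand): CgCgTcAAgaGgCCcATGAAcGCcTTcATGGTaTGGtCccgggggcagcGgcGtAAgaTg
Sox4 (chr13:28952791-28952850, minus strand): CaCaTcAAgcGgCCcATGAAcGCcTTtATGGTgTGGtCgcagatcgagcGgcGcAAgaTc
Sox11 (chr12:27342208-27342267, minus strand): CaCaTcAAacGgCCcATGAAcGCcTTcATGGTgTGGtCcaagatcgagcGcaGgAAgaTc
Sox5 (chr6:143841223-143841282, minus strand): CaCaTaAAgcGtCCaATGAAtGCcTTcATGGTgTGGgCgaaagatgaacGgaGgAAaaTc
Sox6 (chr7:115489712-115489771, minus strand): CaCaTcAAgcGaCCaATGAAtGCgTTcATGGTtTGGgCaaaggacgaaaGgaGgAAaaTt
Sox13 (chr1:133385515-133385574, minus strand): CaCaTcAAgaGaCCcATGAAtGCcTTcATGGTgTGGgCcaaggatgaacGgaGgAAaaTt
Sox8 (chr17:25570172-25570231, minus strand): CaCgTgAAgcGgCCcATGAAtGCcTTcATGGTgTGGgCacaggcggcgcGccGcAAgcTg
Sox9 (chr11:112782894-112782953, plus strand): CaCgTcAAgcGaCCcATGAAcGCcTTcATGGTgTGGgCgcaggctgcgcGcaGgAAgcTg
Of the 28 pairs of genes, the 5 with the most identical bases were all pairs within a group. Sox4 and Sox11, Sox5 and Sox13, Sox6 and Sox13, and Sox8 and Sox9 each shared 53 of 60 bases, and Sox5 and Sox6 shared 51. Sox2 and Sox6 shared 39, the fewest together with Sox2 and Sox5. The longest run that the coding sequences of any pair had in common was 48 bases, between Sox4 and Sox11, against reads of 150 bases. The authors' tables gave a posterior standard deviation of 0 counts for every member but Sox8 in each library.

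In Dor cKO optic nerves, Sox8 and Sox6 fell and Sox9 and Sox13 rose, each by less than 2-fold. Sox8, a relative of Sox10 that remains on in oligodendrocytes, was 1.87-fold lower, and Sox6, of group D, was 1.66-fold lower. Sox13, the group D relative of Sox6, was 1.32-fold higher, and Sox9, the group E relative of Sox8 that astrocytes retain, was 1.24-fold higher. Sox2, Sox4, Sox5 and Sox11 did not pass the test. All 8 passed the filter on low counts, and 4 of 8 were called at an adjusted p under 0.05 by edgeR's quasi-likelihood test with Benjamini-Hochberg adjustment over 16751 genes. Of all genes tested, 27.7% were called, 14.3% as higher and 13.4% as lower. The median log2 fold change of the 8 was -0.04, and that of all genes tested was -0.0036.

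**Figure D1:**
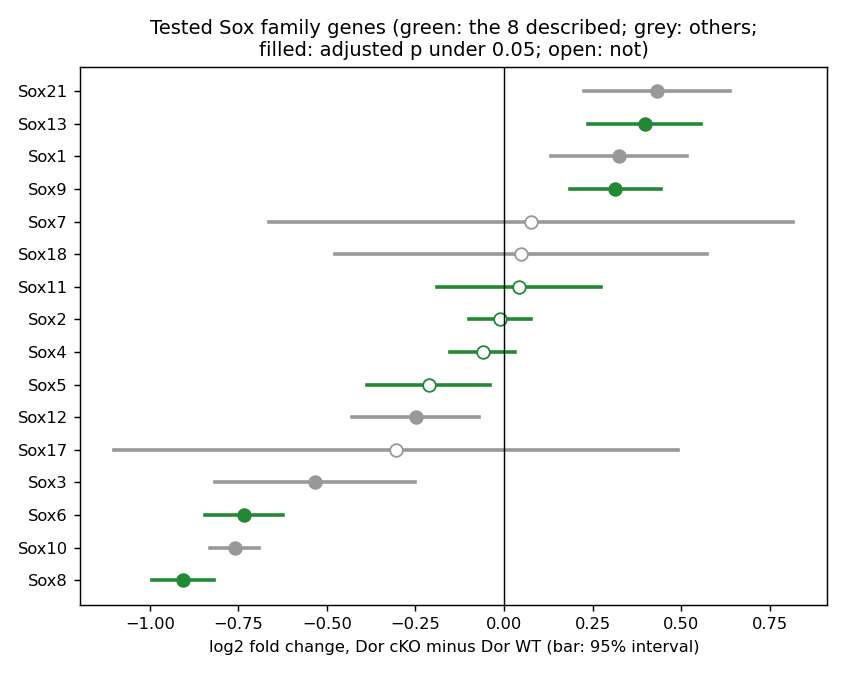
Log2 fold change (Dor cKO minus Dor WT, horizontal axis) of the 16 Sox family genes that passed the filter, with 95% intervals, the 8 described in green, and called genes as filled points. Sox8 and Sox6 lie at -0.91 and -0.73, beside Sox10 at -0.76, and Sox9 and Sox13 lie at 0.31 and 0.40.

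Sox8 (ENSMUSG00000024176.10, chromosome 17, 25565892 to 25570686, minus strand) had 135 and 135 CPM in the Dor WT libraries against 72.4 and 71.6 CPM in the Dor cKO libraries. Both Dor cKO libraries were lower than both Dor WT libraries, and the libraries within each group lay close together. The CPM of the groups did not overlap for 5 of the 8 members, and this held for 60.8% of all genes tested. Sox8 fell by 0.91 on the log2 scale (SE 0.04, 95% interval -0.99 to -0.82, edgeR adjusted p = 3.24e-16), and 4.14% of tested genes had a larger absolute log2 fold change. Sox10, the third gene of group E, fell by 0.76 (SE 0.03).

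Part of the Sox8 signal cannot be told apart from a neighbour on the other strand. The noncoding gene 2810468N07Rik (chromosome 17, 25570358 to 25575043, plus strand) shares 329 exon bases with Sox8, which is 10.6% of the exon bases of Sox8. It had 69.0 and 71.6 CPM in the Dor WT libraries against 40.7 and 40.1 CPM in the Dor cKO libraries and fell by 0.80 (SE 0.06, edgeR adjusted p = 9.26e-12). The authors' posterior standard deviation of the Sox8 count was between 6.74 and 8.11 counts, against expected counts of 1487 to 2927. The expected counts of both genes held fractions in each library, such as 2347.94 for Sox8 and 1198.06 for 2810468N07Rik in Dor WT replicate 1. The strand setting of the counting step is not stated, so reads of the shared stretch may belong to either gene.

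Sox9 (ENSMUSG00000000567.5, chromosome 11, 112782224 to 112787760, plus strand) had 59.5 and 61.6 CPM in the Dor WT libraries against 69.6 and 81.1 CPM in the Dor cKO libraries. Both Dor cKO libraries were above both Dor WT libraries, and Dor cKO replicate 2 was the highest by a margin wider than the gap between the groups. Sox9 rose by 0.31 (SE 0.06, 95% interval 0.19 to 0.44, edgeR adjusted p = 0.000296). Without Dor cKO replicate 2 the rise was 0.20 (adjusted p = 0.0407), and without Dor cKO replicate 1 it was 0.42 (adjusted p = 7.01e-06). With the biological coefficient of variation, the relative spread between libraries, set at 0.1 in place of the 0.0348 estimated from these libraries, the call was lost (0.31, adjusted p = 0.189).

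**Figure D2:**
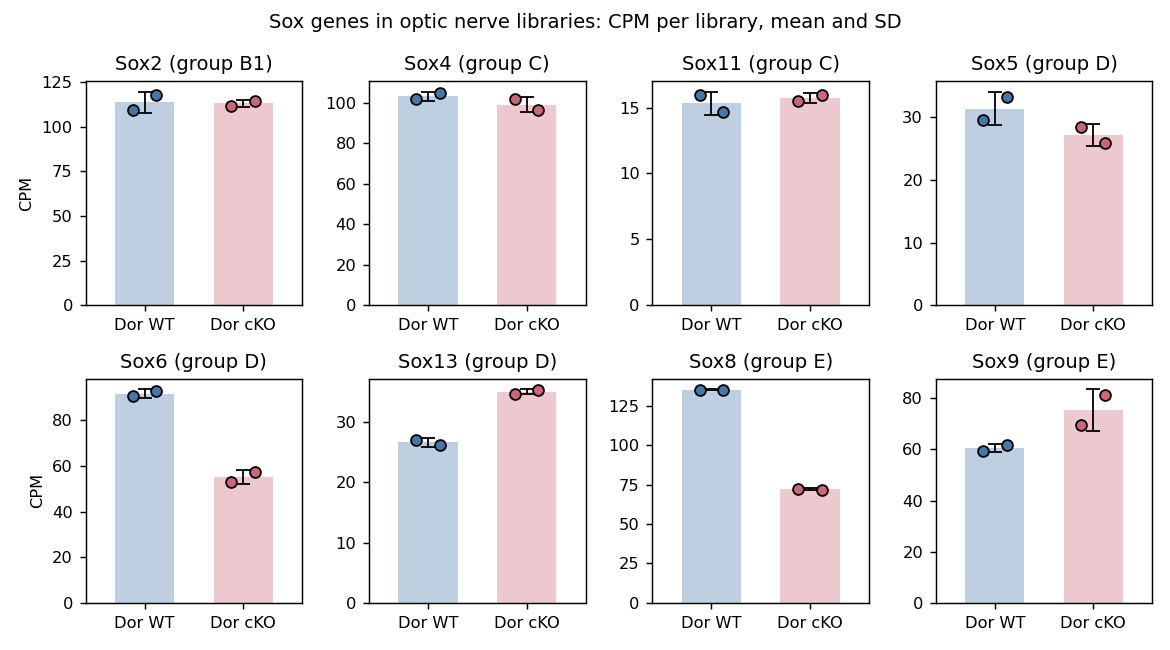
CPM (vertical axes, each from 0) of the 8 Sox genes in each library, shown as points, with the mean as a bar and the SD of the 2 libraries of a group as a whisker. Sox6 and Sox8 are lower and Sox9 and Sox13 higher in both Dor cKO libraries, whereas the points of Sox2, Sox4 and Sox11 overlap between the groups.

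In group D, Sox6 (ENSMUSG00000051910.13, chromosome 7, 115470872 to 116038796, minus strand) had 90.5 and 93.0 CPM in the Dor WT libraries against 53.0 and 57.5 CPM in the Dor cKO libraries. The gap between the groups was wider than the distance between libraries of either group. Sox6 fell by 0.73 (SE 0.05, 95% interval -0.84 to -0.62, edgeR adjusted p = 5.88e-12). Its antisense neighbours Gm45025 and Sox6os held at most 3 counts in any library.

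Sox13 (ENSMUSG00000070643.11, chromosome 1, 133382303 to 133424377, minus strand), which has been shown in mice to share functions with Sox5 and Sox6 in oligodendrocyte precursors, had 27.1 and 26.1 CPM in the Dor WT libraries against 34.7 and 35.3 CPM in the Dor cKO libraries. The groups did not overlap. Sox13 rose by 0.40 (SE 0.08, 95% interval 0.24 to 0.56, edgeR adjusted p = 0.000196). Its call was also lost with the coefficient of variation set at 0.1 (0.40, adjusted p = 0.0891).

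Sox5 (ENSMUSG00000041540.16, chromosome 6, 143828425 to 144781977, minus strand) had 29.5 and 33.3 CPM in the Dor WT libraries against 28.4 and 26.0 CPM in the Dor cKO libraries. Both Dor cKO values were below both Dor WT values, but the gap between the groups was smaller than the distance between the libraries of either group. Its log2 fold change was -0.21 (SE 0.08, 95% interval -0.39 to -0.04), with an edgeR adjusted p of 0.0603. Leaving out Dor WT replicate 1 made it a call (-0.29, adjusted p = 0.0152), and without Dor WT replicate 2 it was -0.12 (adjusted p = 0.447). All 5 genes named as Sox5 antisense RNAs in the annotation had 0 counts in each library.

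Estimated transcript lengths varied within groups for Sox5 and Sox6, which have 14 and 16 annotated transcripts in the tables. The length of Sox5, weighted by the abundance of its transcripts, was 5747 and 3881 bases in the Dor WT libraries against 4670 and 3658 bases in the Dor cKO libraries. That of Sox6 was 5810 and 4684 bases in the Dor WT libraries against 5193 and 5010 bases in the Dor cKO libraries. The lengths of the groups overlapped for both genes, and the Dor WT libraries lay farther apart than the Dor cKO libraries. Sox13 had lengths of 2735 and 3164 bases in the Dor WT libraries against 3241 and 3064 bases in the Dor cKO libraries, whereas Sox9 has 1 transcript and a length of 4135 bases in every library. Levels per length (TPM, which scales for transcript length as well as library size) of Sox5, Sox6 and Sox13 carry that spread, and those of Sox9 do not. With limma on log2(TPM + 1), Sox6 had a log2 fold change of -0.68 (adjusted p = 0.0685), Sox5 of -0.02 (adjusted p = 0.976), Sox13 of 0.25 (adjusted p = 0.287) and Sox9 of 0.28 (adjusted p = 0.17), so the calls of Sox6, Sox9 and Sox13 were lost and that of Sox8 was not (-0.905, adjusted p = 0.00538).

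The stretches upstream of the starts of Sox6 and Sox8, which fell together, are shown to compare their base composition and motifs. Both are from RefSeq on GRCm38.p6, 5′ to 3′ on the strand of the gene, cut where the GENCODE gene begins, and for Sox6 the window of its most upstream RefSeq start is the one printed. Capitals mark matches to the SOX core letters ACAAAG or ACAATG or to the GC box GGGCGG on either strand, with overlaps between motifs counted for each.
Sox6 (chr7:116038797-116038994, minus strand): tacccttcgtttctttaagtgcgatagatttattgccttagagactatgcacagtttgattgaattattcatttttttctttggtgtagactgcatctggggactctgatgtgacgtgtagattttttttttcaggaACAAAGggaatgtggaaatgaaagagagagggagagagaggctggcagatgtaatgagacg
Sox8 (chr17:25570687-25570936, minus strand): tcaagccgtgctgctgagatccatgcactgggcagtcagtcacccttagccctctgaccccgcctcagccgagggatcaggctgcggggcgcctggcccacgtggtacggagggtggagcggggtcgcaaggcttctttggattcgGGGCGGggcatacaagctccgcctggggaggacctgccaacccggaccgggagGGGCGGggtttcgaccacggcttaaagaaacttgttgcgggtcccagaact
The 198 bases of Sox6 hold 1 match to ACAAAG and no GC box, and the 250 bases of Sox8 hold 2 GC boxes and no match to either SOX core. Windows at 5 other RefSeq starts of Sox6 held between 0 and 4 GC boxes, between 0 and 2 matches to ACAAAG and between 0 and 2 to ACAATG, so the motifs of Sox6 depend on the start. The Sox8 stretch lies inside the span of 2810468N07Rik. Among the 250 bases before the start of 32851 RefSeq promoters, ACAAAG was present in 16.5%, ACAATG in 10.7% and GGGCGG in 32.7%. These matches describe the letters and not bound sites.

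Sox2 (ENSMUSG00000074637.7, chromosome 3, 34650405 to 34652461, plus strand) had 110 and 118 CPM in the Dor WT libraries against 112 and 114 CPM in the Dor cKO libraries. Both Dor cKO values lay between the Dor WT values. Its log2 fold change was -0.01 (SE 0.04, edgeR adjusted p = 0.89), and the 95% interval ran from -0.10 to 0.08.

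Sox2ot, a long noncoding RNA whose gene spans Sox2 on the same strand without overlapping its exon, fell. It had 123 and 126 CPM in the Dor WT libraries against 81.3 and 76.3 CPM in the Dor cKO libraries and fell by 0.66 (SE 0.04, edgeR adjusted p = 1.31e-12). The ratio of Sox2ot to Sox2 in TPM was 1.03 and 1.05 in the Dor WT libraries against 0.705 and 0.623 in the Dor cKO libraries.

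In group C, Sox4 (ENSMUSG00000076431.4, chromosome 13, 28948919 to 28953713, minus strand) had 102 and 105 CPM in the Dor WT libraries against 102 and 96.4 CPM in the Dor cKO libraries. The groups overlapped, and the log2 fold change was -0.06 (SE 0.04, 95% interval -0.15 to 0.03, edgeR adjusted p = 0.352). The exon of Sox4 overlaps the opposite-strand noncoding gene Gm26735 in the annotation. No counts are given for Gm26735, so its part in the Sox4 count cannot be checked. Sox11 (ENSMUSG00000063632.6, chromosome 12, 27334264 to 27342574, minus strand) had 15.9 and 14.7 CPM in the Dor WT libraries against 15.5 and 16.0 CPM in the Dor cKO libraries. Its groups overlapped too, with a log2 fold change of 0.04 (SE 0.11, edgeR adjusted p = 0.839) and a 95% interval of -0.19 to 0.27, the widest of the 8 members. Its expected counts were 277 to 332 per library, the lowest of the 8.

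**Figure D3:**
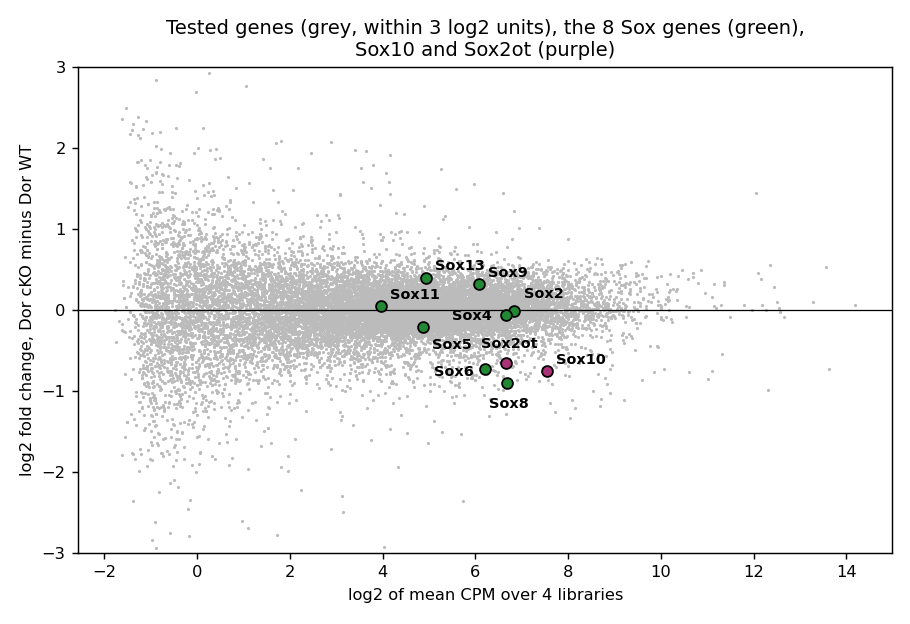
Log2 fold change (Dor cKO minus Dor WT, vertical axis) against the log2 of mean CPM over the 4 libraries (horizontal axis) for tested genes in grey, with the 8 Sox genes in green and Sox10 and Sox2ot in purple. Sox6, Sox8, Sox10 and Sox2ot lie between -0.66 and -0.91, and Sox2, Sox4 and Sox11 lie near 0.

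Per length, Sox2 was the most abundant member in both groups and Sox11 the least. In Dor WT the order by TPM was Sox2 at 91.8 ± 4.91 (SD, n = 2), Sox8 at 73.6 ± 1.80, Sox4 at 33.0 ± 0.750, Sox6 at 27.1 ± 4.88, Sox9 at 22.7 ± 0.601, Sox13 at 14.4 ± 1.97, Sox5 at 10.6 ± 3.92 and Sox11 at 2.76 ± 0.156. The values of Sox13 and Sox5 overlapped, and those of the other neighbours in the order did not. In the authors' posterior mean TPM, Sox6 at 25.15 and 31.13 also overlapped Sox4 at 30.15 and 31.62 in the Dor WT libraries. In Dor cKO, Sox2 was at 89.9 ± 1.48 TPM, Sox8 at 38.9 ± 2.04, Sox4 at 31.4 ± 1.20, Sox9 at 27.9 ± 2.98, Sox13 at 17.3 ± 0.948, Sox6 at 16.4 ± 1.38, Sox5 at 10.1 ± 1.20 and Sox11 at 2.81 ± 0.0636. There Sox9 and Sox13 stood ahead of Sox6, and the values of Sox13 and Sox6 overlapped. In the authors' posterior mean TPM the ratio of Sox6 to Sox13 was 1.00 and 1.06 in the Dor cKO libraries, which puts Sox6 level with or just ahead of Sox13. Summed over group E without Sox10, TPM was 94.6 and 98.0 in the Dor WT libraries against 66.1 and 67.4 in the Dor cKO libraries. Summed over group D it was 47.3 and 56.9 in the Dor WT libraries against 41.4 and 46.3 in the Dor cKO libraries. Group C summed to 35.4 and 36.2 in the Dor WT libraries against 34.98 and 33.4 in the Dor cKO libraries.

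Within groups E and D, the shares of the genes in each library were compared as a description. Sox9 made up 9.63% and 9.48% of the summed TPM of Sox8, Sox9 and Sox10 in the Dor WT libraries against 17.3% and 19.9% in the Dor cKO libraries. Sox8 made up 31.3% and 30.7% in the Dor WT libraries against 27.1% and 24.9% in the Dor cKO libraries. The ratio of Sox8 to Sox9 in TPM was 3.25 and 3.24 in the Dor WT libraries against 1.56 and 1.25 in the Dor cKO libraries. In group D, Sox6 made up 49.98% and 53.6% of the summed TPM in the Dor WT libraries against 37.3% and 37.5% in the Dor cKO libraries. Sox13 made up 33.5% and 22.9% in the Dor WT libraries against 40.3% and 38.9% in the Dor cKO libraries. Sox5 made up 16.5% and 23.5% in the Dor WT libraries against 22.4% and 23.6% in the Dor cKO libraries. The shares of Sox5 overlapped between the genotypes, and those of Sox6, Sox8, Sox9 and Sox13 did not. With 2 libraries per group an exact permutation test cannot reach a threshold of 0.05, so the shares are given without a test.

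**Figure D4:**
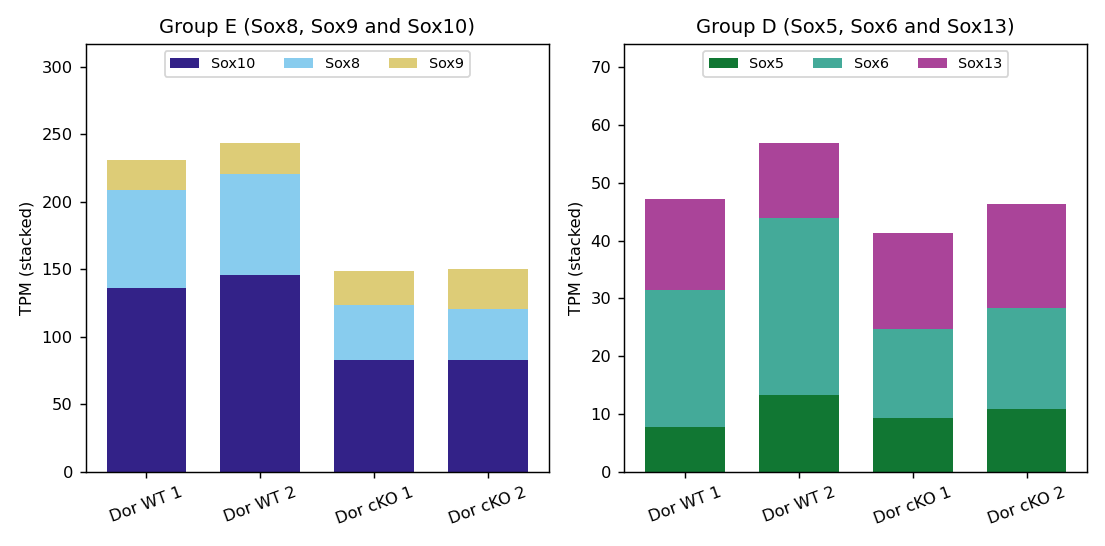
Stacked TPM (vertical axes, from 0) of Sox10, Sox8 and Sox9 (left) and of Sox5, Sox6 and Sox13 (right) in each of the 4 libraries. On the left the Sox8 and Sox10 segments are shorter and the Sox9 segment taller in Dor cKO. On the right the Sox6 segment is shorter in Dor cKO.

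For each called member, the 2 genes with the most similar CPM profile were sought among 11849 tested genes whose mean reached 5 CPM (pseudogenes and genes named only by a number or clone left out), by the Euclidean distance between log2 CPM values centred on each gene's mean over the 4 libraries. Closest to Sox8 were Ppp1r16b (distance 0.018) and Ugt8a (0.018), which encodes an enzyme of galactolipid synthesis. Closest to Sox6 were Elfn2 (0.011) and Nacad (0.029). Closest to Sox9 were Cmtm7 (0.019) and Ccl9 (0.0265), and closest to Sox13 were Nnat (0.015) and Fxyd5 (0.016). With 4 libraries many genes lie close to any profile, and the distance describes these libraries only.

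Genes known as targets of group E in glia moved in both directions. All 11 listed were tested, 8 fell and 3 rose, with a median log2 fold change of -0.65. Of all genes tested, 13.4% were called lower and 14.3% higher. The myelin gene Mbp fell by 0.73 (SE 0.01), and Mmd2, a gene known to be activated by Sox9 with Nfia in mouse astroglial precursors, fell by 0.09 (SE 0.02, edgeR adjusted p = 0.0046). The other known joint targets of Sox9 and Nfia, Apcdd1 and Zcchc24, rose by 0.29 (SE 0.04) and 0.28 (SE 0.03), and Nfia, a target of Sox9 and then its partner, rose by 0.14 (SE 0.05, edgeR adjusted p = 0.0251). Of 6 genes that depend on Sox2, Sox4 or Sox11 in neural cells, 1 rose, 2 fell and the other 3 stayed short of the threshold, against 14.3% higher and 13.4% lower among all genes tested; the median was 0.03. Fabp7, a fatty acid binding protein gene of radial glia and precursors, fell by 0.30 (SE 0.03), Dcx, a microtubule gene of young neurons, fell by 0.37 (SE 0.07), and the filament gene Nes rose by 0.13 (SE 0.04).

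Among 15 factors known to work with Sox proteins there were 7 falls, 3 rises and 5 genes short of the threshold, and the median was -0.30. Among all genes tested, 13.4% fell and 14.3% rose, so 3 rises of 15 lie near the background. Olig1 fell by 1.33 (SE 0.03) and Zeb2 by 0.52 (SE 0.03), both factors of oligodendrocyte differentiation. Nfix, a nuclear factor I gene, rose by 0.16 (SE 0.03). Nfia and Nfib, the other nuclear factor I genes on the list, were the remaining rises, with Nfib at 0.15 (SE 0.04).

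Cell type markers also differed between the groups, where 13.4% of all tested genes were called lower and 14.3% higher. All 15 markers listed for oligodendrocytes fell, with a median of -0.82. Their summed level was 32070 and 31960 CPM in the Dor WT libraries against 18450 and 18360 CPM in the Dor cKO libraries. The ratio of Dor cKO to Dor WT was 0.575 for that sum, 0.534 for Sox8, 0.591 for Sox10 and 0.602 for Sox6. The 15 markers include Sox10 itself and the transcription factor genes Olig1, Olig2 and Myrf, so the sum and Sox10 are not independent. Of 10 oligodendrocyte precursor markers, 7 fell and 0 rose, with a median of -0.25. Gpr17 fell by 1.18, from a mean of 569 CPM to 251 CPM, whereas Pdgfra and Ptprz1 fell by 0.07 each. Bcan, Vcan, Matn4 and Lhfpl3 fell by 0.36 to 0.60. Cspg4, C1ql1 and Cspg5 were not called (-0.11, -0.14 and 0.15). The sum of the 10 was 2366 and 2348 CPM in the Dor WT libraries against 1805 and 1780 CPM in the Dor cKO libraries. The ratio of that sum was 0.76, against 0.602 for Sox6. Of 10 astrocyte markers, 8 rose and 1 fell. Their sum was 14220 and 14200 CPM in the Dor WT libraries against 15610 and 15630 CPM in the Dor cKO libraries. That is a ratio of 1.10, against 1.24 for Sox9. Gfap, which rose 1.07-fold, made up most of that sum. Gja1 rose 1.31-fold, Aldoc 1.39-fold and Aldh1l1 1.26-fold, Slc1a2, Slc1a3, S100b and Agt rose 1.1-fold to 1.18-fold, and Aqp4 fell 1.28-fold. In whole tissue, fewer cells of a type and less RNA per cell cannot be told apart, and the part of cell composition in the Sox results was not tested.

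Markers of other cells that use these genes were examined as well, and their counts stand against 14.3% of all tested genes called higher and 13.4% called lower. Of 10 cartilage markers, a tissue in which Sox5, Sox6 and Sox9 act together, 4 fell and 2 rose. The median log2 fold change of the 10 was -0.22. Their sum was 279 and 282 CPM in the Dor WT libraries against 304 and 298 CPM in the Dor cKO libraries. Col9a2, the most abundant of them, rose from a mean of 110 CPM in Dor WT to 154 CPM in Dor cKO. None of the 10 was at 0 in any library. Of 10 neuron and neuroblast markers, 5 fell and 1 rose, with sums of 730 and 729 CPM in the Dor WT libraries against 556 and 569 CPM in the Dor cKO libraries. Of 9 fibroblast and meningeal markers all rose, with sums of 20250 and 19970 CPM in the Dor WT libraries against 27230 and 27390 CPM in the Dor cKO libraries. Of 8 microglia markers 4 rose and 1 fell (606 and 610 CPM in Dor WT, 696 and 701 CPM in Dor cKO), and of 8 endothelial markers 3 rose and 0 fell (254 and 261 CPM, then 302 and 306 CPM). Of the 5 endothelial markers not called, Pecam1 lay at -0.28, Tie1 at -0.29 and Erg at -0.45. Cldn5 and Kdr lay at 0.09 each. Of 8 pituitary markers tested, 7 fell, and of 11 hypothalamus and tanycyte markers 6 fell and 1 rose, from 544 and 566 CPM to 473 and 486 CPM. Avp, which was not called, averaged 346 CPM in Dor WT and 349 CPM in Dor cKO and made up most of that sum. The median log2 fold change of the 11 was -1.51, with Col25a1 at -1.51, Irs4 at -1.94 and Oxt at 0.40. Pituitary progenitors and tanycytes express Sox2. The part of these tissues in the values of Sox2, whose groups overlapped, was not tested. Of 7 Schwann cell markers tested 2 fell and 1 rose, and the 9 retina and pigment epithelium markers summed to between 2.94 and 4.14 CPM.

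**Figure D5:**
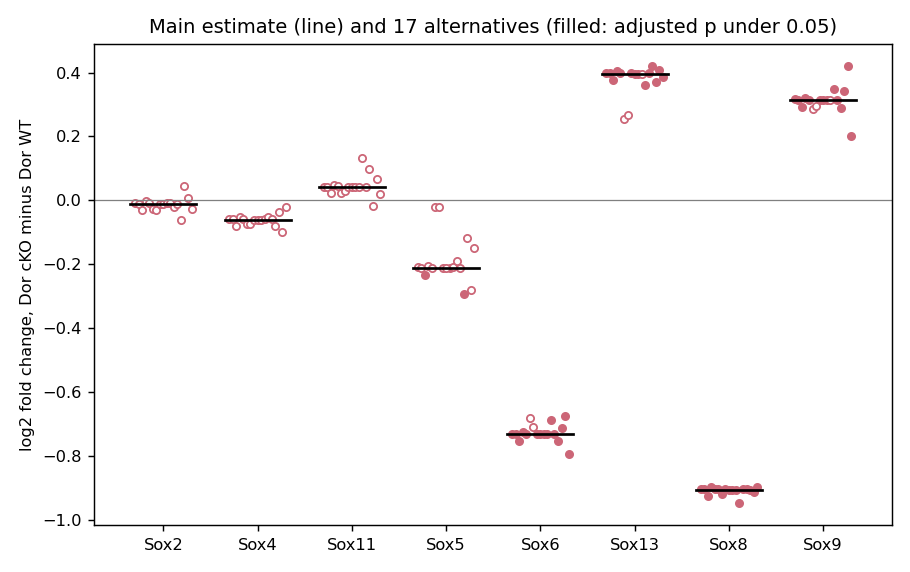
Log2 fold change (Dor cKO minus Dor WT, vertical axis) of each of the 8 Sox genes in the reported fit (line) and under 17 alternatives (points, filled where the adjusted p was under 0.05). Sox8 is called under all 17, from -0.95 to -0.90, and Sox6 under 15, whereas Sox9 and Sox13 are called under 14 each.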

How the data were processed

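RNA of mouse optic nerves was sequenced in 2 Dor WT and 2 Dor cKO libraries; per the labels, 2 micrograms of total RNA entered a stranded mRNA kit, products of 200 to 500 bases were kept and paired reads of 150 bases were made. Per the submitters' processing notes, Trimmomatic 0.36, STAR 2.7.9a, RSEM 1.3.1 and GRCm38 were named, without their roles. The deposited tables hold, per the file headers, expected counts, posterior mean counts and TPM values made by the authors with RSEM. Names and coordinates came from GENCODE M21 (55141 of 55401 identifiers matched; the 260 others held 0.00297% of counts).

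Expected counts were rounded. After filterByExpr (minimum count 10, minimum total 15), 16751 genes were scaled by TMM and tested with edgeR 4.0.16, a robust quasi-likelihood fit with group as the only term, over all 4 libraries; genes were called at a Benjamini-Hochberg adjusted p under 0.05. SE is the log2 fold change divided by the square root of F, and 95% intervals use its degrees of freedom. CPM use TMM-scaled sizes. Intervals cover the spread between libraries, and floors cover counting error only.

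The 8 genes and all lists were chosen with earlier results of these data known, so the lists are described by counts and medians and not tested. The rule for named genes took all members, the other Sox genes, up to 3 called genes with the highest mean CPM per gene list, the 2 genes most like each called member, and overlapping genes; Apcdd1, Zcchc24, Nfia and Nfib were added after their values were seen. The alternatives tried comprised RLE and total count scaling, DESeq2 1.42.0 with its Wald test, no filter, at least 1 CPM in 2 libraries, limma 3.58.1 on log2(TPM + 1) and log2(TPM + 0.1) for genes with at least 0.5 TPM in 2 libraries, posterior mean counts, no robust option, a replicate block, a likelihood ratio test at a coefficient of variation of 0.1, removal of a trend on length and GC content (mgcv), removal of mitochondrial and haemoglobin genes, and leaving out each library. Protein sequences were not used here. Some genes that the rule names are not reported here.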

Additional observations from a re-analysis of the deposited data

How the results depend on the processing

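Sox8 stayed lower and past the threshold under all 17 alternatives, with log2 fold changes of -0.95 to -0.90, and Sox4 stayed short of the threshold under all 17, from -0.10 to -0.02. With limma on log2(TPM + 1) or log2(TPM + 0.1), the calls were lost for Sox6 (-0.682 and -0.711), Sox9 (0.285 and 0.295) and Sox13 (0.253 and 0.267), leaving 1 member called lower and 0 called higher under both settings; the counts over all genes went from 2399 to 593 and 598 higher and from 2248 to 624 and 626 lower. With the coefficient of variation set at 0.1, Sox9 (0.315) and Sox13 (0.396) were no longer called, 0 members were called higher, and 703 genes were called higher and 891 lower. Sox5 became a call when libraries were scaled by total count (-0.233, adjusted p = 0.038) or the replicate block was added (-0.212, adjusted p = 0.0396); its range over all alternatives was -0.29 to -0.02. The cause of these differences was not tested.

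Leaving out 1 library at a time gave -0.0609 to 0.0459 for Sox2, -0.019 to 0.0993 for Sox11 and -0.293 to -0.118 for Sox5. The values of Sox2 turned to 0.0459 without Dor WT replicate 2 and to 0.00674 without Dor cKO replicate 1, and that of Sox11 to -0.019 without Dor WT replicate 2, none past the threshold. The numbers 1 and 2 are not stated to pair libraries, and the deviations of same-numbered libraries from their group means correlated at -0.0177 over 16751 genes, so the replicate block is an alternative only. With posterior mean TPM, the ratio of summed TPM in Dor cKO to that in Dor WT was 0.704 in place of 0.693 for group E without Sox10 and 0.848 in place of 0.842 for group D; leaving out 1 library gave 0.681 to 0.706 and 0.770 to 0.928. Of the 8 members, Sox11 had the fewest counts.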

Other observations

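The rest of the Sox family holds members of other groups and cell types, and 8 of its 12 genes passed the filter on low counts. Of these, 2 rose, 3 fell and the other 3 stayed short of the threshold, and their median was -0.10 on the log2 scale, against 14.3% higher and 13.4% lower among all genes tested. In group B1, Sox1 had 19.9 and 24.0 CPM in the Dor WT libraries against 27.7 and 27.5 CPM in the Dor cKO libraries and rose by 0.32 (SE 0.09, edgeR adjusted p = 0.00894). Sox3, the third gene of that group, which is known to be needed in the hypothalamus and pituitary, had 12.8 and 17.4 CPM in the Dor WT libraries against 10.3 and 10.7 CPM in the Dor cKO libraries and fell by 0.53 (SE 0.14, edgeR adjusted p = 0.00356). Pituitary markers were lower in the same libraries, at 0.167 of their Dor WT sum, most of which was Chga. The part of these markers in the Sox3 value was not tested. Sox21, of group B2, which is known to counteract group B1, had 16.2 and 17.3 CPM in the Dor WT libraries against 23.7 and 21.7 CPM in the Dor cKO libraries and rose by 0.43 (SE 0.10, edgeR adjusted p = 0.00132).

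Sox12, the remaining gene of group C, had 42.3 and 53.2 CPM in the Dor WT libraries against 39.8 and 41.0 CPM in the Dor cKO libraries and fell by 0.25 (SE 0.09, edgeR adjusted p = 0.0357), with Dor WT replicate 2 well above the other libraries. Sox7, Sox17 and Sox18, the group F genes of vessels, had 1.29 to 3.45 CPM and log2 fold changes of 0.08, -0.30 and 0.05 that did not pass the test (95% intervals -0.66 to 0.82, -1.10 to 0.49 and -0.48 to 0.57). Sox30 had 2 to 12 counts per library, Sox14 and Sox15 had 2 or fewer and Sry had 0, and these 4 were not tested. The noncoding RNA Sox1ot, whose gene spans Sox1 on the same strand, had a log2 fold change of -0.04 (SE 0.16, edgeR adjusted p = 0.903).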
